A study of Homo sapiens with 6 samples.

Results

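Untreated A549 cells, read from the 2 arrays labelled vehicle among the 6 arrays of the series, gave strong signal for genes of antioxidant and detoxifying metabolism, for cell cycle genes and for some genes of secreted proteins, while the surfactant genes of the lung stayed at background. The members are these 2 arrays, chosen by their titles, and their genes were ranked by the mean deposited log2 level. The vehicle cells received no compound. The other groups, also of 2 arrays each, received 2 µM of Comp.2 or 2 µM of Comp.4, code-named compounds that the series title describes as sequence-specific inhibitors of histone acetyltransferases. All cells grew in DMEM with serum and L-glutamine, were treated a day after plating and gave total RNA on day 2, and no difference from the treated groups was tested. The vehicle itself is not named in the labels, all cells are of a single line, and nothing says that the 2 vehicle samples came from separate cultures, so the spread between them may be technical.

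A549 is an established line from a human lung adenocarcinoma and has long served as a model of the alveolar type II cell, the cell that makes surfactant. The line is known to lack functional KEAP1, STK11 and SMARCA4 and to have lost the CDKN2A locus. KEAP1 normally hands the transcription factor NRF2, encoded by NFE2L2, over to degradation. NRF2 in turn drives genes for quinone and aldehyde reduction, thioredoxin and glutathione metabolism, NADPH supply and export of conjugates. These facts are background from the study of the line and were not measured here.

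A level here is a log2 value of a probe set, and it depends on the probes as well as on the RNA, so a rank orders signal and not molecules. The floor was set on each array by 350 protein-coding olfactory receptor genes, which epithelial cells are not known to use. Their median was 3.39 on both vehicle arrays and their 95th percentile, used as the floor, was 5.26 on replicate 1 and 5.23 on replicate 2. A gene was called above the floor where both arrays exceeded it, and above the strict floor where both exceeded the 99th percentile, 6.00 and 6.06. Of 22395 named genes 11295 were above the floor (50.4%) and 8547 above the strict floor (38.2%), and of 17029 protein-coding genes 10140 were above the floor (59.5%). Counts above the strict floor given below stand against that 38.2% of named genes, as no such share is given for protein-coding genes. The highest receptor genes themselves, OR4A5 at a mean of 6.57 and OR51S1 at 6.40, lay above the strict floor, so levels up to about these values cannot be told from background by this panel alone.

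**Figure D1:**
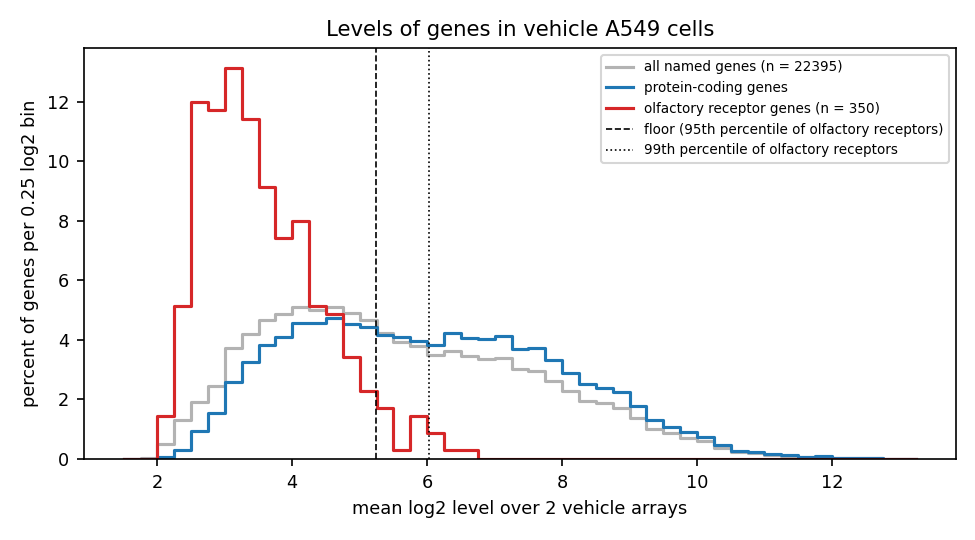
Histogram of mean log2 level over the 2 vehicle arrays, as the percent of genes in each bin of 0.25 log2 units, for all 22395 named genes (grey), protein-coding genes (blue) and 350 olfactory receptor genes (red), with the floor (dashed) and the 99th percentile of the receptor genes (dotted). The receptor genes centre near 3.39, while the other genes spread up to 13.

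The 2 arrays gave nearly the same profile. Pearson's r over the named genes, which are not independent replicates, was 0.997, and the SD of the difference between arrays was 0.158. The arrays differed by a median of 0.067 in genes above the floor and by 0.110 in the others. The 5 genes above the floor that differed most were TUBA1A, a tubulin, at 6.19 and 5.38, the microRNA genes MIR4516 at 6.36 and 5.59 and MIR4518 at 6.41 and 5.75, RN5S357 at 5.81 and 6.55, and ANKDD1A at 6.03 and 5.36. A further 581 genes were above the floor on 1 array only. Near the floor, genes whose levels differ by less than these gaps have no settled order.

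The highest protein-coding signals came from the mitochondrial genome. ND2, a subunit of respiratory complex I, stood first at 13.09 and 13.05. COX1, the catalytic subunit of cytochrome oxidase, followed at 13.01 and 13.01. ND1, COX2, ND5 and CYTB, further respiratory chain subunits, had means between 12.60 and 12.75, and of 8 mitochondrially encoded genes measured 7 were among the 100 highest protein-coding genes. Nuclear copies of mitochondrial genes can share such probes.

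The order leaves out probe sets with several gene symbols, and 36 of the 50 highest named genes were shared when these were added. Within that limit the highest protein-coding gene of the nuclear genome was FTL, the ferritin light chain that stores iron, at 12.84 and 12.88. ALDH1A1, which oxidises retinaldehyde to retinoic acid, measured 12.39 and 12.42. SLC7A5, the large neutral amino acid carrier, measured 12.24 and 12.27, and CYP24A1, the enzyme that inactivates vitamin D, had a mean of 12.01 ± 0.028 (SD, n = 2). The rest of the 20 highest protein-coding genes were cytoskeletal (TMSB10, TUBB, ACTN4, ACTG1), translational (EEF2, RPS27), glycolytic (PKM), a histone (H2AC20), ANXA1, a membrane-binding annexin, and CMTM8, a protein of the cell membrane, at 11.93 and 11.93.

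Tubulins, actins, histones and ribosomal proteins have near-identical copies that can share probes, so the single gene behind such a signal is uncertain. Of the 19 neighbouring pairs in the order of the 20 highest genes, 6 overlapped between the arrays, so that part of the order lies within the replicate spread. Of 37 measured histones 4 were among the 100 highest protein-coding genes, and of 56 measured cytosolic ribosomal proteins 5. The NRF2 list described next, with 51 measured genes, held 9 of these 100 places. Genes seen only by probe sets with several symbols are not in these counts.

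The 2 arrays shared 49 of their 50 highest named genes. In those 50 of the vehicle mean, 44 were protein-coding, and the others were the small RNA genes SNORD13, RMRP and SNAR-E, the long noncoding MALAT1 and the pseudogenes ANXA2P2 and HNRNPA1P10. The treated groups had 49 (Comp.2) and 47 (Comp.4) of the same 50 genes among their own 50 highest.

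The antioxidant and detoxifying genes grouped under NRF2 formed the list with the most genes in the top 1% of named genes. Of 51 measured members 44 were above the floor (86.3%, against 59.5% of protein-coding genes) and 39 above the strict floor, with a median of 8.01 against 5.34 for all named genes and 5.90 for protein-coding genes. A total of 12 lay in the top 1% of named genes. The list was written from textbook targets of NRF2 with earlier results of these arrays known, so its counts describe the line and test nothing.

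Within that list the thioredoxin and quinone group had all 11 measured genes above the strict floor, with a median of 10.20. PRDX1, a peroxiredoxin that removes hydrogen peroxide, measured 11.91 and 11.90. NQO1, the quinone reductase, measured 11.69 and 11.71, and TXN, thioredoxin, 11.65 and 11.74. HMOX1, haem oxygenase, lay lower at 10.21 and 10.18, and TXNRD1, thioredoxin reductase, at 9.16 and 9.23. SRXN1, sulfiredoxin, measured 10.06 and 10.03 on the probe set used, while another of its probe sets averaged 5.36. NQO2, also of this group, measured 8.69 and 8.62 on the probe set used and 5.33 on average on another. Both of these other probe sets averaged under the strict floor, so the count of 11 holds for the highest probe sets.

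The NADPH-supplying group had all 6 measured genes above the strict floor, with a median of 10.94. TKT, transketolase of the pentose phosphate pathway, measured 11.77 and 11.81. PGD, the phosphogluconate dehydrogenase of the same pathway, measured 11.79 and 11.75. UGDH, which makes the UDP-glucuronate used in glucuronidation, was placed in this group and measured 11.82 and 11.83. The malic enzyme ME1, a further NADPH source, lay at 10.10 and 10.14.

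Among the aldo-keto and carbonyl reductases, 9 of 10 measured genes were above the floor (90%, against 59.5% of protein-coding genes) and 6 above the strict floor. AKR1B10, a retinaldehyde-reducing aldo-keto reductase, measured 11.77 and 11.84 and ranked 31 of all named genes. AKR1C2 measured 9.41 and 9.49. AKR1C1 measured 7.67 and 7.68, and AKR1C3 7.50 and 7.48. The AKR1C genes, which reduce steroids and prostaglandins, are near-identical in sequence, so their separate levels are uncertain, whereas the liver member AKR1C4 stayed below the floor at 3.92 and 3.92. The treated arrays gave 11.61 and 11.70 for AKR1B10 under Comp.2, and 11.66 and 11.70 under Comp.4.

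Glutathione genes were mixed, with 15 of 20 above the floor (75%, against 59.5% of protein-coding genes) and 13 above the strict floor. GSR, glutathione reductase, stood at 11.02 and 11.01, and SLC7A11, the cystine importer that feeds glutathione synthesis, at 10.73 and 10.77. GPX4, the peroxidase of membrane lipids, measured 10.55 and 10.59, and GSTP1, the pi-class transferase, 10.38 and 10.38. GCLM, the modifier subunit of the rate-limiting synthetic enzyme, measured 9.93 and 9.99, and its catalytic partner GCLC 8.23 and 8.30. GSTM1, GSTM3, GSTT1, GSTA1 and MGST3 did not clear the floor, GSTM1 lying lowest at 3.93 and 3.88. High signal in this group thus included the reductase, the importer, the peroxidase GPX4 and the pi-class transferase, and some alpha, mu and theta transferases were at background.

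The regulators themselves lay lower than many of the enzymes. NFE2L2 had a mean of 8.01 ± 0.013 (SD, n = 2), and KEAP1 measured 8.57 and 8.59. MAFG, a small Maf partner of NRF2, measured 6.59 and 6.42, and MAFF, another, was below the floor at 5.02 and 5.15. A transcript level does not show whether the protein is functional.

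**Figure D2:**
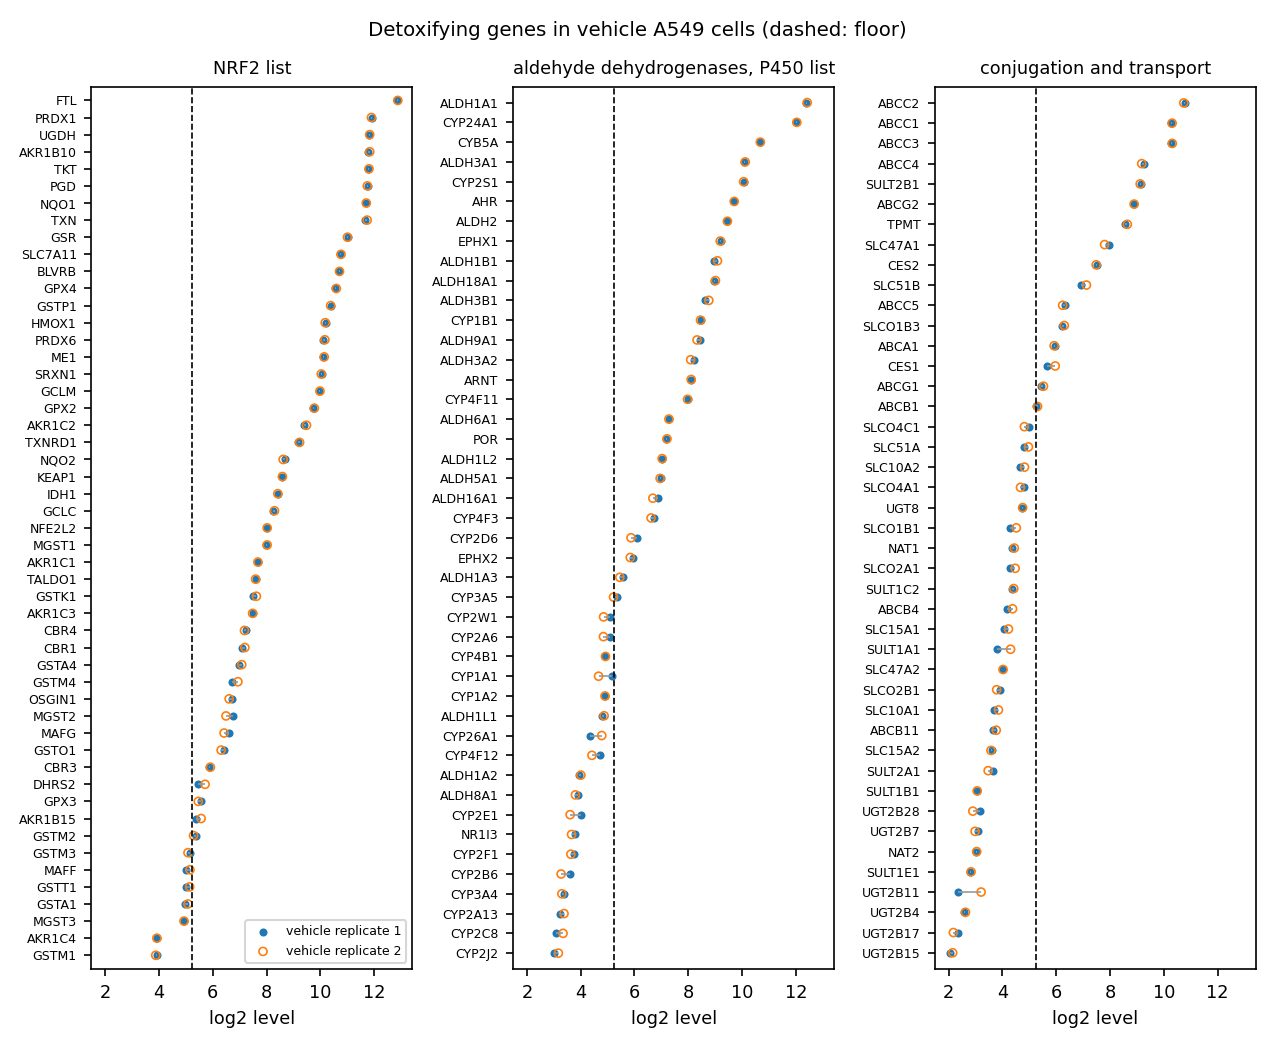
Log2 level of each measured gene on vehicle replicate 1 (filled) and replicate 2 (open) for the NRF2 list, the aldehyde dehydrogenases with the P450 list, and the conjugating enzymes with the transporters; the dashed line is the floor. FTL at 12.84 and 12.88 tops the NRF2 list, and all 7 measured glucuronosyltransferases lie left of the floor.

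The promoters of the NRF2 list are shown because NRF2 with a small Maf protein is known to bind the antioxidant response element, whose core is written here as TGACNNNGC. The 250 bases before each start, from the RefSeq promoter table on GRCh38.p14, were searched on both strands. A match occurred in 15 of 60 windows of 46 list genes (25%), against 10.91% of all 35116 windows, some genes having several annotated starts. The share was 17.86% in the 28 windows of the coagulation list, which is not a list of NRF2 targets. The stretches below run 5′ to 3′ on the strand of the gene, the core is in capitals, and it reads GCNNNGTCA where it lies on the opposite strand.
GSTP1 (chr11:67583730-67583770, plus strand): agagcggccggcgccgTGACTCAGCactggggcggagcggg
ME1 (chr6:83431164-83431204, minus strand): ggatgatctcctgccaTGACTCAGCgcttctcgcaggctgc
GCLM (chr1:93909440-93909480, minus strand): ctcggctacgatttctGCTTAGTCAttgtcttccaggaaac
GPX2 (chr14:64942843-64942883, minus strand): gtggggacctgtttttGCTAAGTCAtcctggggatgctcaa
TXNRD1 (chr12:104286914-104286954, plus strand): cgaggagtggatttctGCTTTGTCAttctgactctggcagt
PGD (chr1:10398847-10398887, plus strand): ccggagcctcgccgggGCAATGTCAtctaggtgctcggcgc
KEAP1 (chr19:10502778-10502818, minus strand): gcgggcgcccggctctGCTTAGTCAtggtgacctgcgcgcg

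The core begins 66 bases before the start of GSTP1, 137 before that of ME1 and 34 before that of GCLM. In GSTP1 and ME1 the same letters hold TGACTCA, the site of the AP-1 factors, so the motifs overlap there. GPX2, the gastrointestinal glutathione peroxidase, which carries a match, measured 9.73 and 9.78. GSTM1 and MAFF also carry a match and were below the floor, so a match did not go with signal in every gene. Matches not printed above include those of GSTO1, GSTA4 and CBR1, with lower means of 6.364, 7.035 and 7.14. Of the highest list members PGD carried a match, while FTL, PRDX1, UGDH, TKT, NQO1 and TXN were not among the matched genes. Not every gene of the list had a window. A match is a description of letters and does not show that a factor was bound.

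Aldehyde dehydrogenases were above the floor in 13 of 16 measured genes (81.25%, against 59.5% of protein-coding genes). Of these, 12 were above the strict floor, and the list median was 7.72. After ALDH1A1 came ALDH3A1, an enzyme of aromatic and lipid aldehydes, at 10.07 and 10.12. ALDH2, the mitochondrial enzyme of ethanol metabolism, measured 9.43 and 9.45, and ALDH1B1, a related mitochondrial enzyme, 8.95 and 9.08. ALDH1L1, ALDH1A2 and ALDH8A1 were not above the floor. ALDH1A2, like ALDH1A1 a retinaldehyde oxidising enzyme, measured 3.93 and 4.01.

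The cytochromes P450 showed a few high genes among many at background. Of 21 measured enzymes 6 were above the floor (28.6%, against 59.5% of protein-coding genes), and of 7 regulators and partner genes 6 were. Beside CYP24A1, CYP2S1, an enzyme of epithelia, measured 10.08 and 10.06. CYP1B1, which oxidises oestrogens and polycyclic hydrocarbons, measured 8.46 and 8.45, and CYP4F11, a fatty acid hydroxylase, 7.98 and 7.97. AHR, the hydrocarbon receptor, lay at 9.69 and 9.71 and its partner ARNT at 8.08 and 8.11. CYP1A1, a textbook target of that pair, was not above the floor, at 5.16 and 4.67, nor was the main liver enzyme CYP3A4, at 3.39 and 3.30. CYB5A, an electron donor to P450 enzymes, measured 10.66 and 10.68, and the microsomal epoxide hydrolase EPHX1 9.20 and 9.19.

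Conjugating enzymes were the lowest of the detoxifying lists, with 4 of 18 measured genes above the floor (22.2%, against 59.5%) and a median of 3.31. The 4 were SULT2B1, a sterol sulfotransferase, at 9.14 and 9.12, TPMT, thiopurine methyltransferase, at 8.57 and 8.64, CES2, a carboxylesterase, at 7.50 and 7.49, and CES1 at 5.65 and 5.96. All 7 measured glucuronosyltransferases were below the floor, with a median of 2.79, 6 of them of the UGT2B family. These 6 are close paralogs, and UGT1A6 was not analysed here. UGDH, the supplier of their cosubstrate, was at the other end of the range.

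Several ABC efflux pumps were high, while most of the listed SLC carriers were at background. ABCC2, a pump of glutathione and glucuronide conjugates, measured 10.78 and 10.74. ABCC1, a further conjugate pump, measured 10.26 and 10.31, and ABCC3, which sits on the basolateral side of epithelia, 10.25 and 10.31. ABCC4 followed at 9.25 and 9.18, and ABCG2, the pump also called BCRP, at 8.89 and 8.89. ABCC5, a further pump of the family, was lower at 6.34 and 6.24. ABCB1, the P-glycoprotein gene, was above the floor on replicate 2 only, at 5.23 and 5.30. Of 11 ABC genes 8 were above the floor (72.7%, against 59.5% of protein-coding genes) and 6 above the strict floor. Of 14 SLC carriers, which include exporters and importers, 3 were above the floor (21.4%). They were SLC47A1, an organic cation extruder, SLC51B, a subunit of the bile salt exporter, and SLCO1B3, a hepatic anion importer. The treated arrays gave 10.73 and 10.78 for ABCC2 under Comp.2, and 10.59 and 10.54 under Comp.4.

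Lung lineage genes gave the opposite picture. The label calls the cells alveolar basal epithelial, yet the measured surfactant genes of type II cells and the basal keratins were at background. Of 14 measured type II genes 4 were above the floor (28.6%, against 59.5% of protein-coding genes) and 2 above the strict floor. SFTPB, needed for lamellar body formation, measured 3.40 and 3.22. SFTPC, the surfactant protein of type II cells alone, measured 4.67 and 4.54, and SFTPD 4.48 and 4.55. SFTPA1 was lower still at 2.78 and 2.87, and SFTPA2 was not analysed here. NKX2-1, the lung lineage transcription factor, measured 4.31 and 4.23, so none of these 5 genes exceeded the floor.

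Of 6 genes of surfactant assembly and lamellar bodies 2 were above the floor (33.3%, against 59.5% of protein-coding genes), both of lipid handling. The other 4, LAMP3, NAPSA, CTSH and SLC34A2, were not above it. LPCAT1, which makes surfactant phosphatidylcholine, measured 7.89 and 7.89, and ABCA3, the lamellar body lipid transporter, 7.14 and 7.29. CEBPA, at 5.58 and 5.54, and ETV5, at 5.53 and 5.52, both transcription factors of the type II cell, were above the floor but not the strict floor. LPCAT1 and ABCA3 are also used by cells other than type II cells.

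Of 8 type I genes 4 were above the floor (50%, against 59.5% of protein-coding genes). CAV1, the caveolar coat protein, measured 8.61 and 8.61 and EMP2, a membrane protein, 7.92 and 7.98, but both are broadly expressed genes. AGER, the most selective type I marker, measured 5.49 and 5.37 and RTKN2 5.57 and 5.65, just above the floor and under the strict one. HOPX, a further type I marker, was at 3.62 and 3.62.

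Airway secretory genes were mixed, with 4 of 8 above the floor (50%, against 59.5% of protein-coding genes). Below it lay SCGB3A1, at 4.71 and 4.75, BPIFB1, at 3.68 and 3.91, BPIFA1, at 3.55 and 3.65, and SCGB3A2, at 3.44 and 3.70. MUC5B, a gel-forming airway mucin, measured 7.51 and 7.57, and SPDEF, the goblet cell transcription factor, 7.24 and 7.07. MUC5AC, the other airway gel mucin, measured 6.35 and 6.33. Of 13 measured airway genes 7 were above the floor (53.8%, against 59.5%), these 3 alone passed the strict floor, and MUC5AC lay below 6.36 and 6.42, the floors that keratin-associated and defensin genes give. SCGB1A1, the club cell secretoglobin, at 5.58 and 5.67, and FOXJ1, the ciliated cell regulator, at 6.02 and 5.96, were above the floor and not the strict floor.

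Basal, squamous and neuroendocrine genes were low. SOX2, a regulator of airway and squamous progenitors, was the single one of 6 basal and squamous genes above the floor, at 6.21 and 6.19. KRT5, the basal keratin, measured 3.94 and 4.11, KRT15, another, 4.74 and 4.63, and NGFR, a receptor of basal cells, 5.24 and 5.16. TP63, the defining factor of basal cells, and KRT6A were not analysed here. Of 8 neuroendocrine genes 3 were above the floor, CHGB, GRP and CALCA, INSM1, a neuroendocrine transcription factor, was above it on replicate 1 only at 5.32 and 5.22, and none was above the strict floor.

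**Figure D3:**
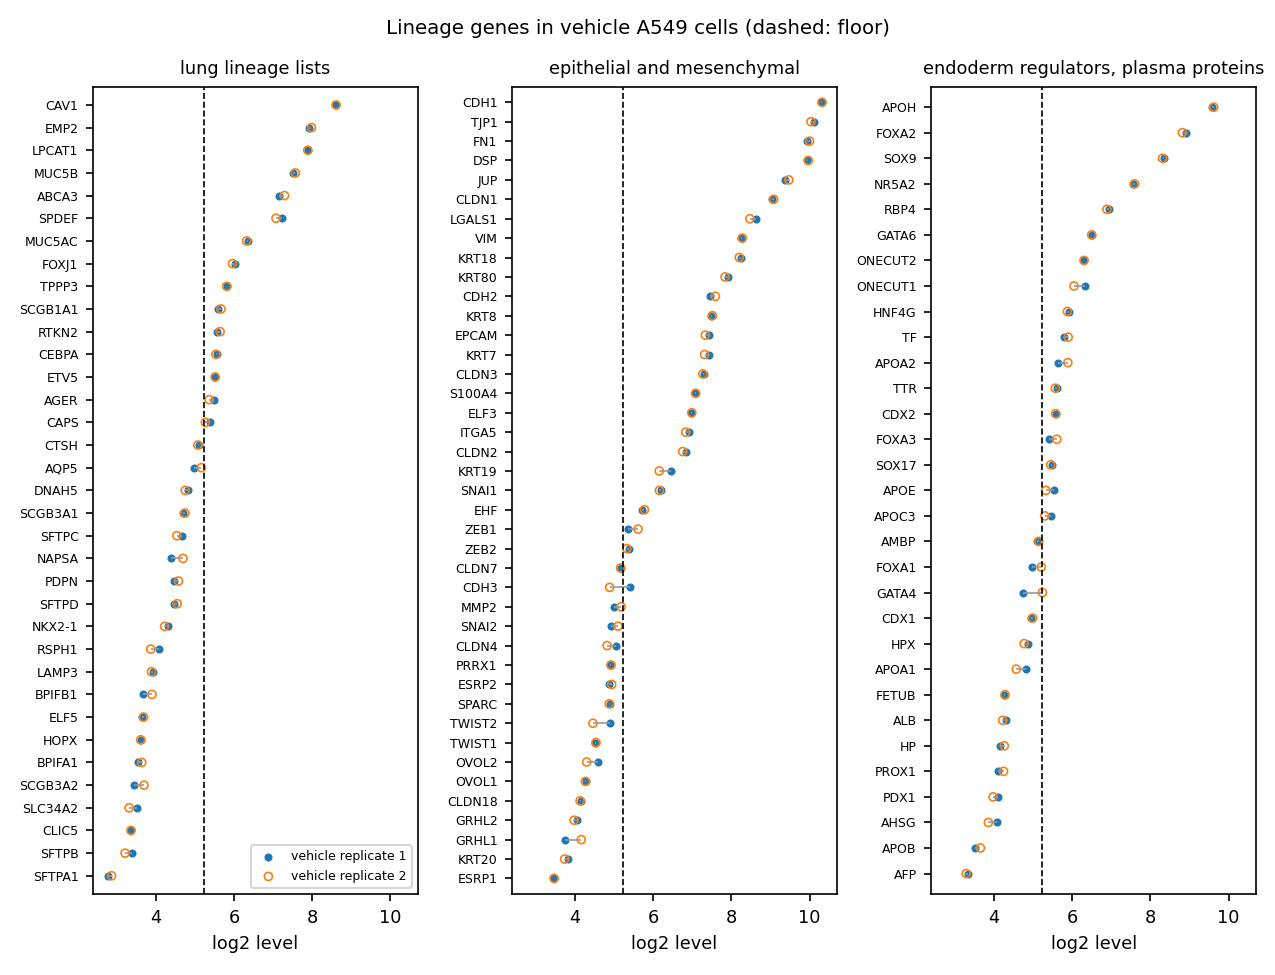
Log2 level of each gene on vehicle replicate 1 (filled) and replicate 2 (open), with the floor dashed, for the lung lineage lists, the epithelial and mesenchymal lists, and the endoderm regulators with liver plasma proteins. The surfactant genes sit left of the floor, while CDH1 at 10.29 and 10.32 and FN1 at 9.93 and 10.00 sit close together at the top of the middle panel.

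Some epithelial adhesion genes and some mesenchymal genes were high at once. CDH1, E-cadherin of adherens junctions, measured 10.29 and 10.32. TJP1, a tight junction scaffold, measured 10.10 and 10.04, DSP, desmoplakin of desmosomes, 9.93 and 9.97, and JUP, plakoglobin, 9.39 and 9.47. CLDN1, a tight junction claudin, measured 9.05 and 9.08, and the simple epithelial keratins KRT18 and KRT8 8.26 and 8.20, and 7.47 and 7.52. EPCAM, an epithelial adhesion molecule, lay at 7.42 and 7.34. KRT80, a further keratin, measured 7.93 and 7.84. Of 26 epithelial genes 15 were above the floor (57.7%, near the 59.5% of all protein-coding genes) and 14 above the strict floor.

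The epithelial transcription and splicing factors did not follow the junctions. Only 2 of 8 were above the floor, ELF3 at 6.96 and 6.99 and EHF at 5.72 and 5.78. GRHL2, a regulator of epithelial junction genes, measured 4.05 and 3.98, and ESRP1, the epithelial splicing factor, 3.47 and 3.47.

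On the mesenchymal side 9 of 15 genes were above the floor (60%, near the 59.5% of all protein-coding genes), so neither list as a whole exceeded the background share by much. FN1, fibronectin, measured 9.93 and 10.00, LGALS1, galectin-1, 8.64 and 8.48, VIM, vimentin, 8.25 and 8.28, and CDH2, N-cadherin, 7.45 and 7.60. Of the transcription factors of this state SNAI1, at 6.21 and 6.16, was above the strict floor, ZEB1, at 5.37 and 5.62, and ZEB2, at 5.40 and 5.33, were above the floor alone, and TWIST1, at 4.51 and 4.55, was not. Transcripts of some junction, cytoskeletal and matrix genes of both states were thus high. Above the floor were 8 of 12 adhesion and junction genes (66.7%) and 6 of 8 mesenchymal protein genes (75%), against 59.5% of protein-coding genes. Most of the transcription factors listed for either state lay at or near the floor.

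Markers of other cell types, which a pure line should not hold, were mostly at background. Of 8 fibroblast genes only COL1A1, a collagen that is also in the matrix list, was above the floor, at 5.48 and 5.42, of 9 endothelial genes ESAM, at 6.38 and 6.11, and CLDN5, at 5.73 and 5.65, and of 11 leukocyte genes CD14, at 6.06 and 6.00. PTPRC, the pan-leukocyte marker, measured 2.72 and 2.68, DCN, decorin of fibroblasts, 2.81 and 2.71, and CDH5, the endothelial cadherin, 4.26 and 4.26. The array gives a total over all cells, so fewer cells expressing a gene and less RNA of it per cell cannot be told apart here or elsewhere.

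Regulators of endoderm were above the floor in 10 of 15 measured genes (66.7%, against 59.5% of protein-coding genes), of which 5 passed the strict floor. FOXA2, a pioneer factor of foregut epithelia, measured 8.92 and 8.82. SOX9, a factor of duct and progenitor cells, measured 8.35 and 8.31, NR5A2, a liver and pancreas nuclear receptor, 7.57 and 7.60, and GATA6, an early endoderm factor, 6.52 and 6.50. FOXA1, the relative of FOXA2, was not above the floor at 4.97 and 5.22.

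Genes of plasma proteins that are mostly made by the liver were high in some cases and at background in others. All 3 chains of fibrinogen, the precursor of the clot, were high. FGB, the beta chain, measured 9.80 and 9.69, FGA, the alpha chain, 9.59 and 9.54, and FGG, the gamma chain, 8.13 and 8.17. APOH, beta-2-glycoprotein I, which binds phospholipids, measured 9.58 and 9.62. ALB, albumin, the main product of the hepatocyte, was below the floor at 4.30 and 4.23, as were APOB, at 3.51 and 3.66, and AFP, at 3.35 and 3.30. Of 16 carriers and apolipoproteins only APOH and RBP4, the retinol carrier at 6.95 and 6.89, passed the strict floor, out of 7 above the floor (43.8%, against 59.5%). TF, transferrin, at 5.80 and 5.90, and APOA2, an apolipoprotein of high-density lipoprotein, at 5.64 and 5.89, were above the floor alone.

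Among 17 clotting genes 11 were above the floor (64.7%, near the 59.5% of protein-coding genes). TFPI2, a Kunitz-type inhibitor of serine proteases, was the highest at 10.31 and 10.26. PROS1, protein S, an anticoagulant cofactor, measured 8.09 and 8.19, and TFPI, the tissue factor inhibitor, 7.50 and 7.51. F3, tissue factor itself, was not above the floor at 4.73 and 4.69, nor were thrombin (F2), at 4.99 and 4.99, and factor IX (F9), at 3.36 and 3.31. In the plasminogen system PLAUR, the urokinase receptor, measured 7.72 and 7.73, PLAU, urokinase, 7.27 and 7.24, and SERPINE2, a protease inhibitor, 6.39 and 6.50, while PLG, plasminogen, was at 3.00 and 3.10.

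Complement and protease inhibitor genes were above the floor in 14 of 30 (46.7%, less than the 59.5% of protein-coding genes), so most of the list was at background. SERPINB1, an inhibitor of neutrophil proteases, measured 10.22 and 10.25 and SLPI, an airway antiprotease, 9.11 and 9.02. CST3, cystatin C, an inhibitor of cysteine proteases, measured 8.27 and 8.34. The membrane regulators of complement CD46, at 9.61 and 9.68, and CD55, at 8.92 and 8.97, were high, as were the fluid components C5, at 8.84 and 8.76, CFD (factor D), at 8.70 and 8.54, and C3, the central component, at 7.92 and 7.84. SERPINA1, alpha-1-antitrypsin, was below the floor at 4.52 and 4.45.

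Of the secreted growth factors, chemokines and cytokines, 33 of 52 were above the floor (63.5%, near the 59.5% of protein-coding genes) and 26 above the strict floor. IGFBP4, a binding protein of insulin-like growth factors, measured 11.37 and 11.38. DKK1, a secreted WNT antagonist, measured 11.01 and 11.05, and NTS, neurotensin, a gut and brain peptide, 10.38 and 10.46. The TGF-beta family was represented by TGFB2 at 9.28 and 9.29, GDF15 at 9.23 and 9.23 and TGFB1 at 9.16 and 9.20.

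Growth factors passed the floor in 24 of 31 genes (77.4%) and chemokines and cytokines in 9 of 21 (42.9%), against 59.5% of protein-coding genes. CXCL5, a neutrophil chemokine, measured 10.40 and 10.45, and IL18, an interleukin released on inflammasome activation, 9.38 and 9.38. The inflammatory genes IL6, at 4.32 and 4.33, CXCL8, at 3.90 and 3.63, and IL1B, at 3.01 and 2.86, were below the floor. The high cytokine signal in untreated cells was thus that of a few genes. CXCL5 measured 10.74 and 10.59 under Comp.2, and 10.93 and 10.95 under Comp.4, all above both vehicle values, a difference that was not tested here.

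Matrix genes and their proteases were above the floor in 24 of 34 (70.6%, against 59.5% of protein-coding genes). The sheddase ADAM9 led at 10.69 and 10.68, with ADAM10 at 9.65 and 9.70 and ADAM17 at 9.18 and 9.16. The basement membrane laminin chains LAMC1, at 9.63 and 9.73, LAMB1, at 9.58 and 9.56, and LAMA5, at 8.73 and 8.79, were all high. TIMP1, an inhibitor of matrix metalloproteinases, measured 9.33 and 9.15, and LOXL2, a collagen crosslinking enzyme, 8.50 and 8.57. The interstitial collagenase MMP1 was below the floor at 3.38 and 3.40.

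Of 13 mucin and trefoil genes outside the airway list 2 were above the floor, MUC13, a membrane mucin of the gut, at 7.36 and 7.40, and MUC1, the membrane mucin of most glandular epithelia, at 5.49 and 5.66. TFF3, an intestinal trefoil factor, measured 5.20 and 5.52 and was above the floor on replicate 2 only, and MUC3A, a gut membrane mucin, measured 5.36 and 5.20 and was above it on replicate 1 only.

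**Figure D4:**
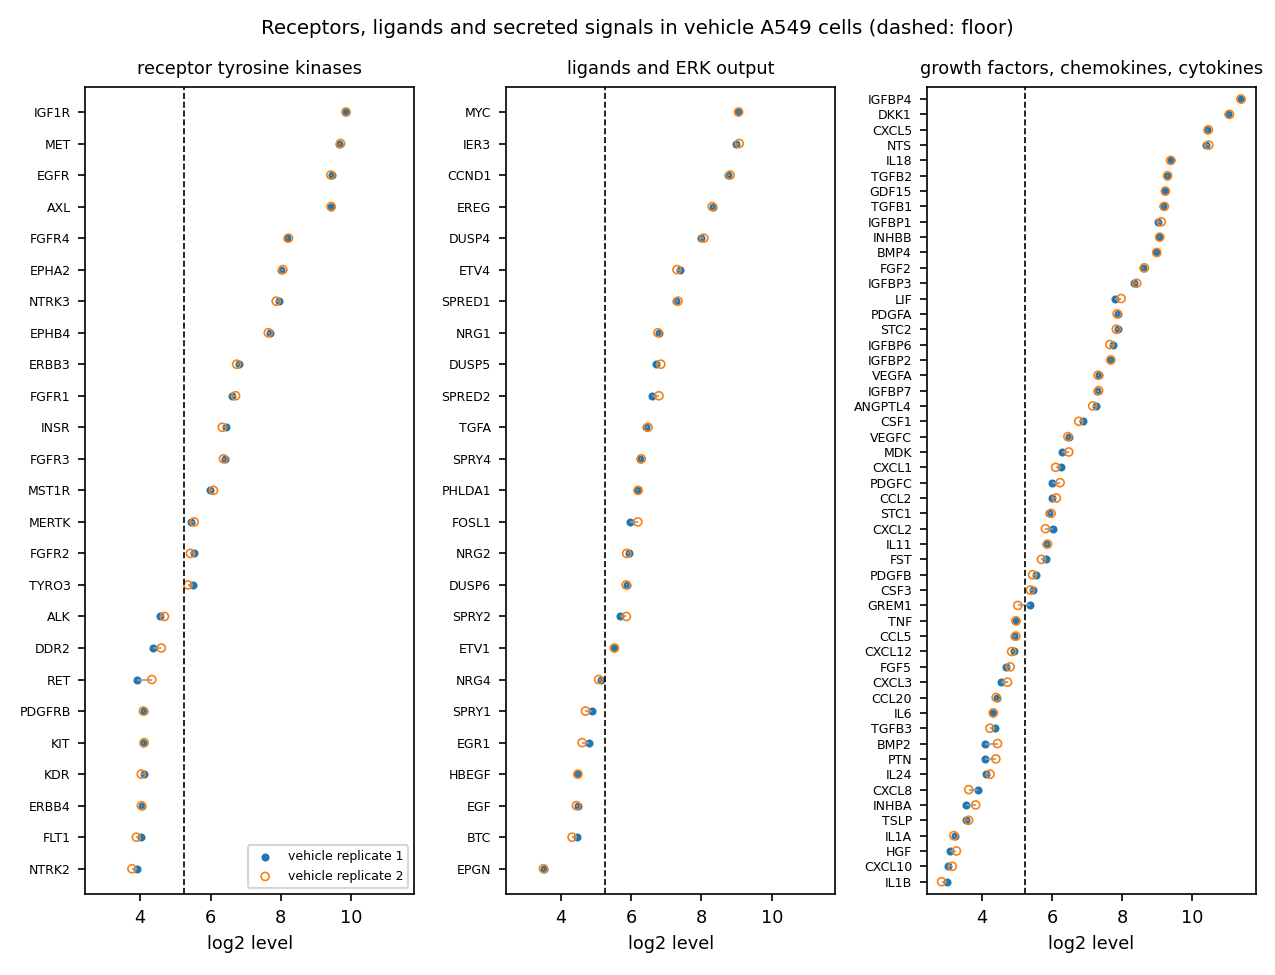
Log2 level of each gene on vehicle replicate 1 (filled) and replicate 2 (open), with the floor dashed, for receptor tyrosine kinases, EGFR family ligands with ERK output genes, and secreted growth factors with cytokines. IGF1R, MET, EGFR and AXL form a group between 9.42 and 9.87, apart from the other receptors.

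Growth factor signalling genes were above the floor in 59 of 77 (76.6%, against 59.5% of protein-coding genes), with a median of 6.77 against 5.90. Of 25 receptor tyrosine kinases 16 were above the floor (64%, near that 59.5%) and 12 above the strict floor. IGF1R, the receptor of insulin-like growth factors, measured 9.87 and 9.85. MET, the hepatocyte growth factor receptor, measured 9.67 and 9.70, EGFR 9.46 and 9.42, and AXL, a receptor of GAS6, 9.44 and 9.43. FGFR4, a receptor of fibroblast growth factors, was next at 8.17 and 8.22, and no other measured receptor lay between it and these 4.

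The ligands of the EGFR family were lower. EREG, epiregulin, measured 8.34 and 8.31, NRG1, neuregulin, 6.80 and 6.76, and TGFA 6.41 and 6.48. EGF itself, at 4.50 and 4.44, and HBEGF, at 4.46 and 4.48, were below the floor. HGF, the ligand of MET, was below the floor at 3.11 and 3.28.

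Between receptors and ERK, 10 of 11 RAS genes and regulators were above the floor (90.9%, against 59.5% of protein-coding genes). PTPN11, the phosphatase SHP2 that couples receptors to RAS, measured 10.51 and 10.54. SHC1, an adaptor, measured 9.59 and 9.58, RRAS, a RAS relative, 9.85 and 9.75, and NF1, a RAS inhibitor, 8.99 and 9.02. All 11 measured genes from PI3K to mTOR were above the floor.

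Outputs and feedback regulators of ERK were above the floor in 14 of 16 (87.5%, against 59.5% of protein-coding genes). Of these, 10 passed the strict floor, and the group median was 6.48, within the range that cannot be told from background. MYC, the growth regulator, measured 9.04 and 9.06, and CCND1, cyclin D1, 8.74 and 8.81. IER3, an immediate early gene, measured 8.98 and 9.07 on the probe set used, while another averaged 5.65. The ERK phosphatase DUSP4 lay at 7.99 and 8.07 and its relative DUSP6 at 5.89 and 5.86, and the early gene EGR1 was below the floor at 4.79 and 4.60. MYC measured 8.60 and 8.78 under Comp.2, and 8.74 and 8.76 under Comp.4, a difference that was not tested here.

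Tumour suppressors and cell cycle inhibitors were above the floor in 14 of 21 (66.7%, near the 59.5% of protein-coding genes). CDKN2A, which encodes p16 and ARF, measured 3.72 and 3.62, and its neighbour CDKN2B 3.92 and 4.00. MTAP, a methionine salvage gene beside them on chromosome arm 9p, measured 5.22 and 5.15, also not above the floor, while DMRTA1, farther along the same region, measured 5.71 and 5.58, above the floor and not the strict floor. STK11, the kinase also called LKB1, measured 6.96 and 6.95, and SMARCA4, an ATPase of chromatin remodelling, 6.37 and 6.36. These 2 genes, whose protein function the line lacks, were above the strict floor, but SMARCA4 lay below the highest olfactory receptor genes, in the range that cannot be told from background. SMARCA2, the alternative ATPase, measured 7.03 and 7.04.

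TGFBR2, the TGF-beta receptor, was the highest of the list at 9.42 and 9.46. CDKN1B, the inhibitor p27, measured 9.19 and 9.20, RB1, the retinoblastoma gene, 8.75 and 8.73, and MDM2, a ubiquitin ligase, 8.75 and 8.79. SMAD4, which carries TGF-beta signals, measured 8.85 and 8.92 on the probe set used and 3.94 on average on another. ARID1A, a further chromatin remodelling gene, measured 7.85 and 7.93. CDKN1A, the inhibitor p21, was lower at 6.08 and 6.24.

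Cell cycle genes were the list with the highest median, 9.49, with all 26 above the floor and 25 above the strict floor. TOP2A, the topoisomerase of dividing cells, measured 11.31 and 11.34. PCNA, the replication clamp, measured 11.26 and 11.29, MKI67, the proliferation marker Ki-67, 11.09 and 11.15, and PLK1, a mitotic kinase, 10.79 and 10.73. MCM7, a replicative helicase subunit, TYMS, thymidylate synthase, MCM4 and MCM5 had means between 9.90 and 10.18. The lowest was CCNE2, a cyclin of the G1/S step, at 5.92 and 6.00. The list median was 9.31 in the Comp.2 arrays and 9.47 in the Comp.4 arrays.

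In the WNT, NOTCH and Hippo list 28 of 39 genes were above the floor (71.8%, against 59.5% of protein-coding genes). TEAD1, a DNA-binding partner of YAP1, measured 9.44 and 9.49, and LRP6, a WNT co-receptor, 9.19 and 9.22. JAG1, a NOTCH ligand, measured 8.97 and 9.10, ZNRF3, a negative regulator of WNT receptors, had a mean of 8.94 ± 0.084 (SD, n = 2), and CTNNB1, beta-catenin, measured 8.83 and 8.86. LRP5, the relative of LRP6, measured 8.54 and 8.67, and FZD6, a WNT receptor, 8.53 and 8.61. LATS1, a Hippo kinase, lay at 8.18 and 7.96 and YAP1, the effector it inhibits, at 7.96 and 7.90. The WNT target LEF1 was below the floor at 3.29 and 3.28, and another, AXIN2, was at 7.67 and 7.56.

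**Figure D5:**
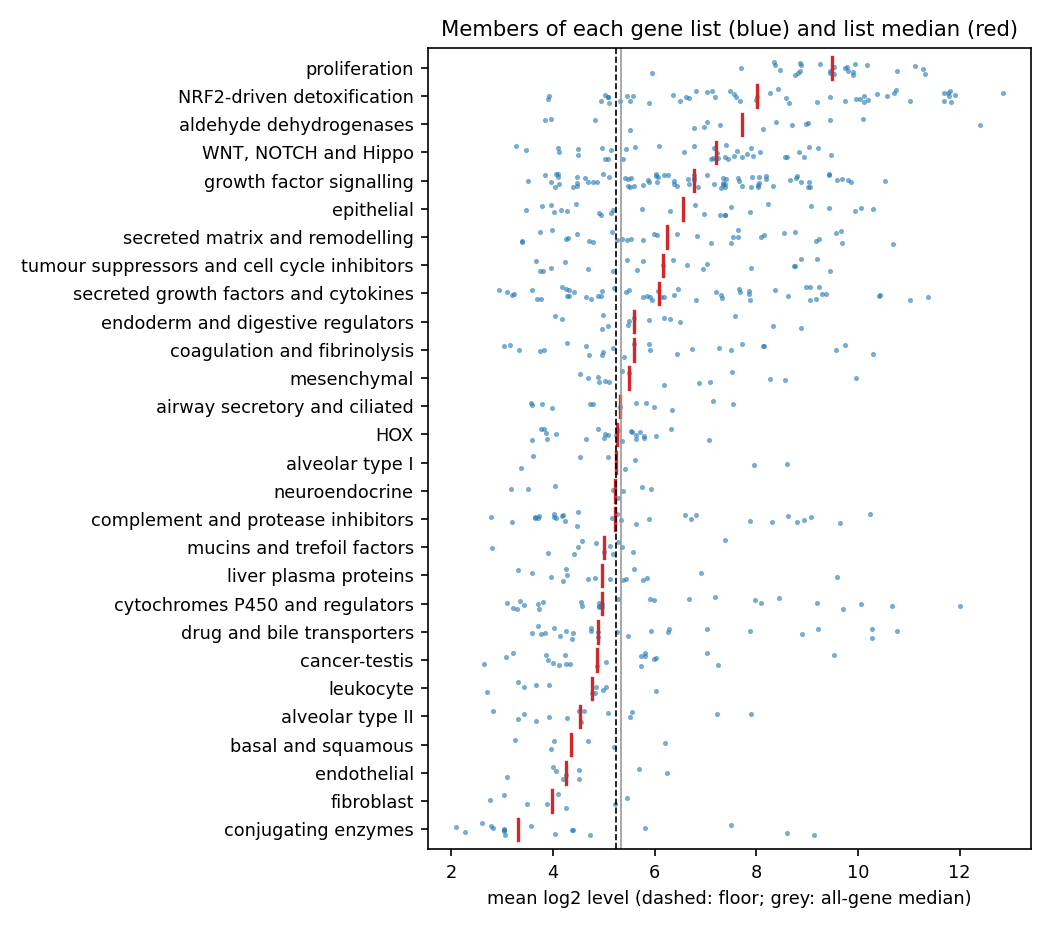
Mean log2 level over the 2 vehicle arrays of each measured member (blue points) of the 28 gene lists, with the list median in red, the floor dashed and the median of all named genes, 5.34, in grey. Proliferation (median 9.49), the NRF2 list (8.01) and the aldehyde dehydrogenases (7.72) stand at the top, and the conjugating enzymes (3.31) at the bottom.

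The treated arrays are given side by side. Genes above the floor numbered 11295 in vehicle, 11304 in Comp.2 and 11330 in Comp.4. The median of the NRF2 list was 8.01, 7.96 and 7.95, that of the epithelial list 6.56, 6.81 and 6.72, and that of the type II list 4.53, 4.58 and 4.63. SFTPB was below the floor on all 6 arrays, at 3.57 and 3.69 under Comp.2, and 3.75 and 3.58 under Comp.4. Differences between vehicle and the compounds were not tested here.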

How the data were processed

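The deposited table holds log2 values for 53617 probe sets, made by the authors with RMA, which corrects background, equalises the distributions of arrays and summarises probes, per the submitters' processing notes. These also list Transcriptome Analysis Console 2.0 and Affymetrix Expression Console 1.3.1, whose roles are not given in the sources used here. Array medians lay between 4.55 and 4.56. Per the labels' protocols, total RNA was purified on RNeasy columns and labelled with WT PLUS reagents. Of the probe sets 23871 had 1 gene symbol, 1842 several and 27904 none here. Only the first kind was used, with symbols matched to RefSeq for 22569 and updated for 90. The probe set with the highest mean stood for each of 632 genes with several, which left 22395 genes.

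Levels were averaged over 2 arrays, ranked and compared with the floor, in Python 3.11.15 with pandas 2.3.3 and numpy 2.4.6. The counting code was run on simulated data whose silent genes were drawn like the receptor genes and whose expressed genes lay clearly higher. That run checks the code and cannot show how well the floor sorts genes that lie near it. No statistical test was run. Of 745 distinct symbols in 28 lists, 645 were measured, and some items are not reported here. The members and lists were chosen with earlier results of these data known. Named genes were taken from the 20 highest protein-coding genes, the highest members of each list (up to 8 in lists of over 20 measured genes, otherwise up to 4), the defining lineage, detoxifying and oncogenic genes, and the 5 widest pairs. Further genes, mainly those at the floor and those showing a subgroup, were chosen after their values were seen. Alternatives were another percentile or panel for the floor, its use on the mean, other probe sets, protein-coding genes alone and 1 array alone.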

Additional observations from a re-analysis of the deposited data

How the results depend on the processing

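No paired analysis was possible because the results come from no test. Under the strict floor the members above it were 2 of the type II list, 2 type I, 3 airway, 0 neuroendocrine, 5 endoderm, 2 liver plasma, 1 mucin, 0 fibroblast, 1 endothelial, 0 leukocyte, 2 HOX and 3 cancer-testis, and the other 16 lists stayed within 1.5 times. With keratin-associated (KRTAP) and defensin (DEFB) genes as the panel, at 6.36 and 6.42, 7442 genes passed, and counts became 2 type II, 2 type I, 2 airway, 0 basal, 0 neuroendocrine, 4 endoderm, 2 liver plasma, 1 mucin, 7 transporters, 9 tumour suppressors, 0 fibroblast, 0 endothelial, 0 leukocyte, 1 HOX and 3 cancer-testis. The cause of these changes follows from the higher floor. Requiring only the mean above the floor, the mean of probe sets or the lowest probe set each gave 4 mucin and trefoil genes. With the mean of probe sets 4 medians moved: airway 4.79, complement 4.84, mucins 4.85 and NRF2 7.70. With the lowest probe set 7 moved: airway 4.79, epithelial 6.05, complement 4.84, mucins 4.85, NRF2 7.67, growth factor signalling 6.69 and tumour suppressors 5.76. With 1 array alone, 11528 to 11643 genes passed, 3 to 4 of them mucin and trefoil genes and 1 to 2 fibroblast genes, and medians were 4.44 to 4.55 for type II, 5.60 to 5.61 for endoderm, 5.18 to 5.19 for complement, 6.02 to 6.12 for secreted growth factors, 4.91 to 5.13 for P450, 3.34 to 3.42 for conjugation, 4.97 to 4.98 for transporters, 6.69 to 6.76 for growth factor signalling and 7.18 to 7.19 for WNT, NOTCH and Hippo. Signal over background limits calls for genes up to about 6.57, the level of the highest olfactory receptor gene, and no detection calls were used. The 50 highest genes shared 47 with either other choice of probe set and 36 when probe sets with several symbols were added.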

Other observations

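Homeobox genes of the HOX clusters, which set position along the body axis, gave weak signal. Of 24 measured 11 were above the floor (45.8%, against 59.5% of protein-coding genes) and 2 above the strict floor. HOXB9 measured 7.05 and 7.10 and HOXB7 6.35 and 6.28 on the 2 vehicle arrays. HOXB3 followed at 6.03 and 6.01, HOXA2 at 5.92 and 5.68, HOXC8 at 5.77 and 5.80, HOXC9 at 5.71 and 5.72, HOXC13 at 5.54 and 5.72 and HOXD8 at 5.60 and 5.65, none of them above the strict floor. HOXA2 was the single HOXA gene analysed here.

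In the cancer-testis list, written mostly from genes normally confined to the germ line, 9 of 21 were above the floor (42.9%, against 59.5%). Of these, 3 passed the strict floor. IGF2BP1, IGF2BP3 and LIN28B, also in the list, are oncofetal genes and are not confined to the germ line. IGF2BP1, an oncofetal RNA-binding protein, measured 9.52 and 9.56. PRAME, a repressor of retinoic acid receptor signalling, measured 7.28 and 7.21, and PAGE5, a gene on the X chromosome, 7.17 and 6.89. MAGEA1, at 6.08 and 6.00, LIN28B, at 6.02 and 5.96, MAGEA3, at 6.10 and 5.52, MAGEC2, at 5.80 and 5.82, and IGF2BP3, at 5.75 and 5.73, were above the floor alone. The MAGEA genes are close paralogs, so their separate levels are uncertain. The treated medians of this list were 4.78 in both groups, against 4.86 in vehicle.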
